A study of Mus musculus with 8 samples.

Results

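The 10 genes described here belong to the extracellular matrix of fat and lie outside the collagen family: the glycoprotein genes Fn1, Thbs1, Postn and Sparc, the small proteoglycan genes Dcn, Bgn and Lum, the microfibril gene Fbn1 and the lysyl oxidase genes Lox and Loxl1. They were chosen by name, as glycoproteins, proteoglycans and crosslinking enzymes of fat stroma. These genes, and the lists of other genes used below, were chosen with earlier results of these data known. All 10 were found among the 34866 genes of the deposited table and passed the filter on low counts, which 12480 genes passed. RNA had been profiled in the epididymal fat of male mice, a white adipose depot. The control group, Aromatase flox/flox, had 4 libraries; in it both copies of the aromatase gene Cyp19a1, which encodes the enzyme that makes oestrogens from androgens, carry loxP sites. The knockout group, aP2-Cre;Aromatase flox/flox, also had 4 libraries and carries in addition a Cre recombinase transgene under the promoter of Fabp4 (aP2), a gene of fat cells that macrophages can also express. Both groups thus share the floxed alleles, a group with the transgene alone was not analysed here, and the labels give no age, diet or other treatment. The study asked which genes downstream of Cyp19a1 in fat take part in phosphorus metabolism.

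Each fat cell sits in a sheath of matrix that is made largely by stromal fibroblasts and progenitors, with contributions from fat cells, vessel cells and macrophages. Fibronectin, thrombospondin 1, periostin and SPARC are adhesive or matricellular glycoproteins that link cells to collagen or modulate that contact. Decorin, biglycan and lumican are leucine-rich proteoglycans that bind collagen fibrils and set their spacing, fibrillin 1 builds the microfibrils on which elastic fibres form and which hold latent TGF-beta, and lysyl oxidases oxidise lysine side chains of collagen and elastin so that the fibres become crosslinked. The matrix is remodelled when fat expands or becomes inflamed.

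None of the 10 genes passed an adjusted p of 0.05 between the genotypes (edgeR quasi-likelihood test, Benjamini-Hochberg over all genes tested), against 21 of 12480 tested genes (0.168%). At an unadjusted p under 0.05 there were 3 members, Fbn1, Postn and Fn1, each with the higher mean in knockout libraries; over all tested genes 3.52% were higher at that level and 2.87% lower. Fbn1 was the only member whose knockout libraries all lay above every control library, a separation that 2.48% of tested genes showed. The fitted difference was above 0 for 8 of the 10 genes, compared with 49.7% of tested genes, and its median over the members was 0.22 on the log2 scale against -0.0015 over all tested genes. That median moved with single libraries: it was 0.06 without knockout replicate 4, 0.1 without control replicate 4 and 0.35 without control replicate 2. It was 0.12 with limma-voom, and -0.01 with both replicates 4 left out, a choice made after seeing the data. For Sparc, Dcn, Bgn, Lum, Lox and Loxl1 the group means differed by less than the SD within either group.

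Libraries held 1538427 to 3045488 estimated counts in control and 2237345 to 3053565 in the knockout group, and levels are given as CPM, the count relative to a library size that was scaled by the trimmed mean of M values and set to a common total. Differences are log2 ratios, knockout over control, from the edgeR fit. Control replicate 4 is the smallest library. Mitochondrial genes took 10.7% to 12.4% of the counts in control and 8.7% to 10.1% in knockout libraries, and 17176 to 17937 against 17968 to 18247 genes had a count above 0. Neither measure overlapped between the genotypes, and their part in the differences of the members was not tested. Cyp19a1 itself had 1 to 5.02 estimated counts in control and 0 to 4 in knockout libraries and did not pass the low-count filter, so the deletion could not be checked. The tissue label fitted its markers: the 10 fat-cell markers summed to 23909 to 33743 CPM in control and 22198 to 31812 in knockout libraries, and 8 epididymis markers to at most 3.77 and 8.92 CPM. Nothing in the labels says that the libraries come from separate animals, so the p-values measure the spread between these libraries. In bulk tissue, fewer cells of a type and less RNA per cell cannot be told apart.

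Sequence before the start site is shown for Postn and Bgn. These were the members for which a RefSeq promoter window (GRCm38.p6) was given and held no annotated exon. For Postn, which had 2 such windows, the one next to the annotated gene start is shown. They are Postn, chr3:54360857-54361106, and Bgn, chrX:73483351-73483600, both on the plus strand, 250 bases each, which end at the base before the RefSeq start. Capitals mark matches to any of the 6 motifs searched on both strands, namely the TATA box TATAAA, the CCAAT box, the GC box GGGCGG, the AP-1 site TGANTCA, the SMAD element CAGAC and the TEAD site GGAATG.
Postn: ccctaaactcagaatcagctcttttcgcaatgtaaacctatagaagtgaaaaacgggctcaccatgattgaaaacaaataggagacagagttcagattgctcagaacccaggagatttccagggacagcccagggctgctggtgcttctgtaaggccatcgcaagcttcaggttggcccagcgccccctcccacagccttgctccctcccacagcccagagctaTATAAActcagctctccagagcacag
Bgn: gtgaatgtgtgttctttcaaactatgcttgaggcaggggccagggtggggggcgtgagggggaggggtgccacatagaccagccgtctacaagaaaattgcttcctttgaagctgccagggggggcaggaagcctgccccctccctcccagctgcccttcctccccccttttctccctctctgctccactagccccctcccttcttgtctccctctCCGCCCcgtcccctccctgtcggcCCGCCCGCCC
The Postn window shown held 1 TATAAA, whose first base lies at -26 from the start, a motif found in 12.4% of the 32851 RefSeq windows of this length. The Bgn window held no TATAAA and 3 matches to GGGCGG, all on the minus strand as CCGCCC, of which the last 2 overlap; 32.7% of windows held that motif. The other 4 motifs had no match in either window shown. The second Postn window, chr3:54359017-54359266, held no TATAAA and 1 CAGAC, at -191, a motif in 42.2% of windows. In the windows shown, G and C made up 52% of the Postn and 64.4% of the Bgn bases. A match is a description of these letters only.

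**Figure D1:**
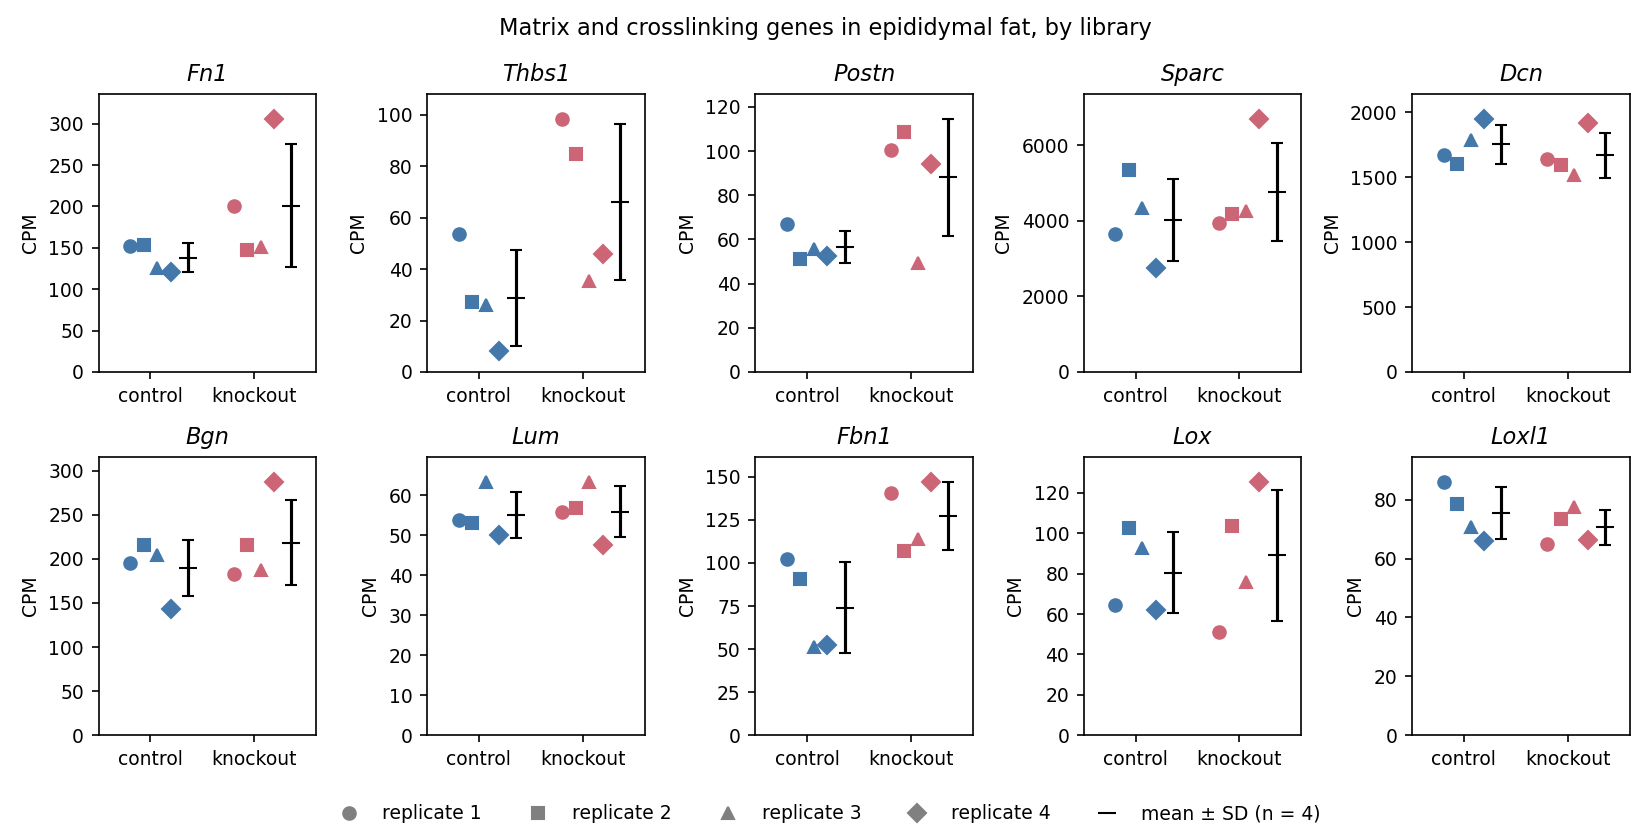
Level of each of the 10 genes in CPM (vertical axis from 0) in the 4 control (blue) and 4 knockout (red) libraries, with symbols for the replicate number and the mean ± SD of each group in black. Fbn1 is the panel in which all knockout libraries, at 107 CPM or more, lie above all control libraries, at 102 CPM or less.

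The adhesive glycoproteins were taken first. Fn1 (chromosome 1, 71585520 to 71653200, minus strand) encodes fibronectin, the scaffold on which other matrix proteins are laid down. It was at 152, 154, 126 and 121 CPM in control replicates 1 to 4 and at 201, 148, 151 and 306 CPM in knockout replicates 1 to 4. Knockout replicates 1 and 4 lay above all controls, while replicates 2 and 3 lay within the control range. The means were 138 ± 17.3 and 201 ± 74 CPM (SD, n = 4), and the log2 ratio was 0.54 (SE 0.22, edgeR adjusted p = 0.726). Without knockout replicate 4, in which the gene was highest, the log2 ratio was 0.26.

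Thbs1 (chromosome 2, 118111876 to 118127133, plus strand) encodes thrombospondin 1, a matricellular protein that binds CD36 and CD47 and can activate latent TGF-beta. Its levels were 53.8, 27.2, 26 and 8.33 CPM in control and 98.5, 84.7, 35.3 and 45.9 CPM in knockout libraries. Among the members it was the most variable gene, with a 6.46-fold range over the control and a 2.79-fold range over the knockout libraries, and the lowest value rests on 13 counts. Control replicate 1 lay above 2 of the 4 knockout libraries. The log2 ratio was 1.13 with a 95% interval from -0.14 to 2.4 (edgeR adjusted p = 0.816), so the means of 28.8 ± 18.7 and 66.1 ± 30.3 CPM (SD, n = 4) did not differ beyond that spread. Without control replicate 1 the log2 ratio was 1.63, and without control replicate 4 it was 0.86.

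Postn (chromosome 3, 54361109 to 54391037, plus strand) encodes periostin, a matricellular protein of connective tissue under remodelling. The control libraries were close together, at 67.1, 51, 55.6 and 52.6 CPM. Knockout replicates 1, 2 and 4 were at 100.3, 109 and 94.1 CPM, above all controls, and knockout replicate 3 was at 49.3 CPM, below all of them. Over all libraries the log2 ratio was 0.63, SE 0.213 (means 56.6 ± 7.26 and 88 ± 26.5 CPM, SD, n = 4, edgeR adjusted p = 0.587). Leaving out that single library moved the gene past the threshold: without knockout replicate 3 the log2 ratio was 0.83 and the edgeR adjusted p 0.039, in a fit that called 0.126% of its tested genes.

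Sparc (chromosome 11, 55394500 to 55423183, minus strand) encodes osteonectin, a collagen-binding protein made by stromal, fat and vessel cells. Its levels were 3643, 5334, 4349 and 2755 CPM in the control libraries. In the knockout libraries they were 3931, 4179.9, 4256 and 6702 CPM. Knockout replicates 1 to 3 lay within the control range and replicate 4 lay above it. The log2 ratio was 0.25 with a 95% interval from -0.24 to 0.73 (edgeR adjusted p = 0.928), and with both replicates 4 left out it was -0.11. Without knockout replicate 4 alone it was 0.035.

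The members with an interval clear of 0 were Fn1, Postn and Fbn1, as the plot of ratios shows, but these intervals are not adjusted for the number of genes tested. When 1 library was left out, the unadjusted edgeR p reached 0.102 for Fn1, 0.0389 for Postn and 0.0198 for Fbn1.

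**Figure D2:**
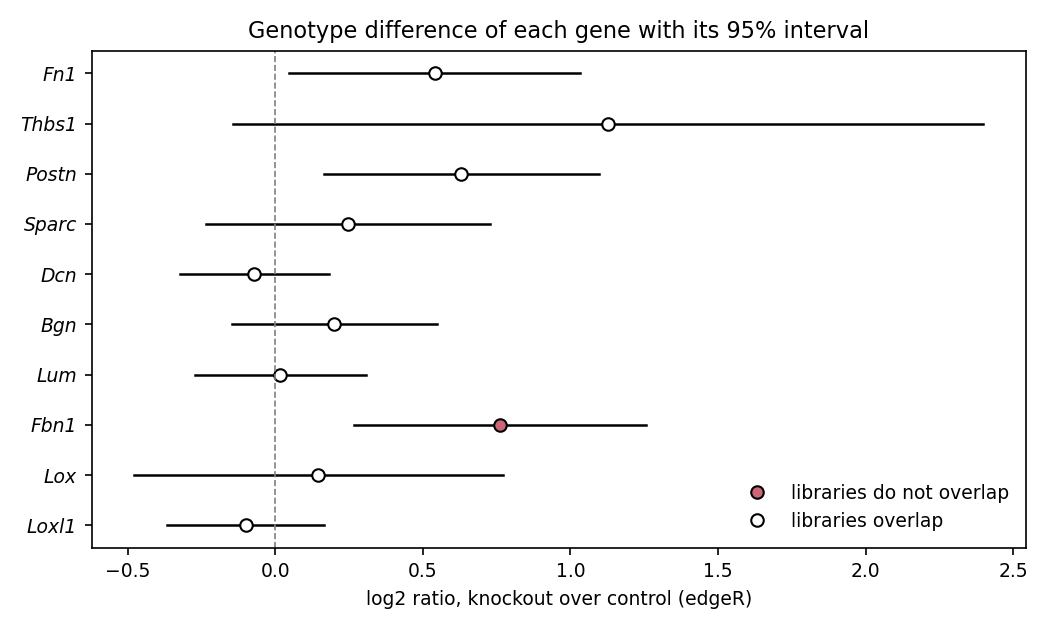
Log2 ratio of each gene, knockout over control, from the edgeR fit (horizontal axis), with its unadjusted 95% interval as a line; the filled point marks the gene whose libraries do not overlap between the genotypes. The intervals of Fn1, Postn and Fbn1 exclude 0, and that of Thbs1 is the widest, from -0.14 to 2.4.

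For the 3 small proteoglycans the 95% interval of the genotype difference included 0. Dcn (chromosome 10, 97479609 to 97518143, plus strand) encodes decorin, which coats collagen fibrils and binds TGF-beta. It was at 1671, 1603, 1788 and 1949.5 CPM in control and at 1639, 1591, 1521 and 1920.4 CPM in knockout libraries. The groups overlapped, knockout replicates 2 and 3 lay below all controls, and the highest library of each group was replicate 4. The log2 ratio was -0.07 with a 95% interval from -0.32 to 0.18 (edgeR adjusted p = 0.958), which in linear terms is 0.799-fold to 1.13-fold.

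Lum (chromosome 10, 97565128 to 97572703, plus strand), the neighbour of Dcn, encodes lumican, a keratan sulphate proteoglycan of collagen fibrils. The control libraries were at 53.8, 53.1, 63.2 and 50 CPM. The knockout libraries were at 55.9, 56.9, 63.2 and 47.6 CPM. The groups overlapped almost completely, and the log2 ratio was 0.02 with a 95% interval from -0.27 to 0.31 (edgeR adjusted p = 0.995), so a 2-fold difference in Dcn or Lum lies outside the interval.

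Bgn (chromosome X, 73483602 to 73495933, plus strand) encodes biglycan, a proteoglycan that can also signal through Toll-like receptors once released. Control values were 196, 216, 204 and 143 CPM. Knockout values were 183, 216, 187 and 287 CPM, and only replicate 4 lay above the controls. Its log2 ratio was 0.2, SE 0.162 (means 189.6 ± 32.2 and 218 ± 48.1 CPM, SD, n = 4, edgeR adjusted p = 0.922), and it was -0.07 with both replicates 4 left out. In the control group Bgn, Sparc and Lox had the same order of libraries, replicate 4 lowest, then 1, 3 and 2.

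Fbn1 (chromosome 2, 125300594 to 125507993, minus strand) had the smallest unadjusted p of the members. It encodes fibrillin 1, the main protein of microfibrils, whose precursor also releases the fasting hormone asprosin. Its levels were 102, 90.8, 51.1 and 52.6 CPM in control replicates 1 to 4 and 141, 107, 114 and 147 CPM in knockout replicates 1 to 4. The control libraries fell into a higher and a lower pair, and the lowest knockout library was close to the highest control. With means of 74.1 ± 26.1 and 127 ± 19.7 CPM (SD, n = 4), the log2 ratio was 0.76 (SE 0.224), which has an unadjusted p of 0.00612 and, by edgeR, an adjusted p of 0.482. In linear terms this is 1.7-fold, with a 95% interval from 1.2-fold to 2.39-fold. By unadjusted p the gene ranked 155 among the 12480 tested. The overlapping gene Gm9913 on the opposite strand had 18 counts over all libraries. Fn1, Thbs1 and Lox are likewise overlapped by an annotated RNA gene on the opposite strand, not used here; since the use of strand in counting is not stated, reads of such pairs cannot be told apart.

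Neither lysyl oxidase gene passed, and their fitted differences had opposite signs. Lox, on chromosome 18, encodes the founding enzyme of the family. It was at 64.6, 103, 92.8 and 62.2 CPM in control and at 51.3, 104, 75.6 and 125 CPM in knockout libraries. The lowest and the highest of the 8 libraries were both knockouts, replicates 1 and 4. The log2 ratio was 0.15 with a 95% interval from -0.48 to 0.77 (edgeR adjusted p = 0.968), and without knockout replicate 4 it was -0.07.

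Loxl1 (chromosome 9, 58287738 to 58313186, minus strand) encodes the family member needed to maintain elastic fibres. Control libraries were at 85.9, 78.7, 70.9 and 66 CPM, and knockout libraries at 65, 73.4, 77.6 and 66.2 CPM. The values overlapped, and only knockout replicate 1 lay below all controls. Loxl1 was among the members with the smallest spread, with coefficients of variation of 11.6% and 8.45%, against 25.1% and 36.3% for Lox. The log2 ratio was -0.1 with a 95% interval from -0.37 to 0.17 (edgeR adjusted p = 0.943). Lox and Loxl1 share 2 words of 31 bases in their annotated transcripts, and no other stretch of that length.

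The members differed in how much they varied from library to library. Within the groups, coefficients of variation ran from 8.66% (Dcn) to 65% (Thbs1) in control and from 8.45% (Loxl1) to 45.8% (Thbs1) in knockout libraries. Knockout replicate 4 was the highest knockout library for 6 members, Fn1, Sparc, Dcn, Bgn, Fbn1 and Lox. Control replicate 4 was the lowest control library for 7 members, Fn1, Sparc, Lum, Bgn, Lox, Loxl1 and Thbs1. Dcn went against this in the control group, being highest in replicate 4, and Lum in the knockout group, being lowest there. Knockout replicate 1 combined the highest Thbs1 of all libraries with the lowest Lox.

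**Figure D3:**
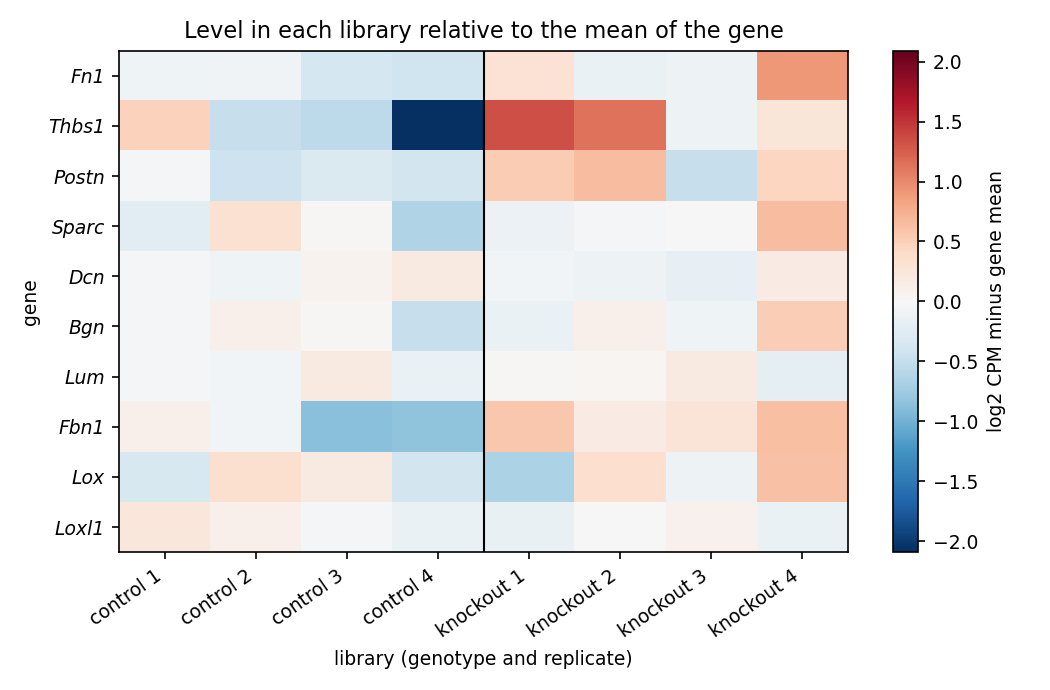
Log2 CPM of each gene (rows) in each library (columns) minus the mean of that gene over the 8 libraries, red above and blue below it, with a line between the genotypes. Control replicate 4 is the lowest control library in 7 of 10 rows and knockout replicate 4 the highest knockout library in 6 of 10, and the deepest colours are those of Thbs1.

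The same 2 libraries stood at the ends for sums over other matrix genes. In the summed CPM of each of 10 further matrix lists, knockout replicate 4 was the highest of the 8 libraries in 10 lists and control replicate 4 the lowest in 8. Such sums follow the most abundant genes of a list. Cd36, at 2161 to 3643 CPM, made up most of the matrix receptor sum of 3656 to 5112 CPM. Summed over the 10 members, the levels were 5261 to 7710.3 CPM in control and 6465 to 9741 CPM in knockout libraries, and 6465 to 6669 CPM in the knockout libraries other than replicate 4. This sum was mostly Sparc, at 2755 to 6702 CPM over the 8 libraries, and Dcn, at 1521 to 1949.5 CPM. The endothelial markers were also lowest in control replicate 4, at 534 CPM against 845 to 1084 CPM in the other controls. For them knockout replicate 4 was at 802 CPM, the lowest of its group. The summed stromal progenitor and fibroblast markers were lowest of the 8 libraries in knockout replicate 4, at 4061 CPM, of which Gsn made up 3490 CPM. These sums were 5682 to 6277 CPM in control and 4061 to 5864 CPM in knockout libraries. What part such library differences have in the differences of the members was not tested.

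Of 10005 tested genes outside the members with a mean of at least 10 CPM, the 5 nearest in library profile to the mean profile of the members were picked. The distance was the root-mean-square difference of centred log2 CPM over the 8 libraries. Heg1 was nearest, at 0.0678, followed by Myh9 (0.0784), Serpinb6a (0.0792), Tmem123 (0.0867) and Gmfb (0.087), where the median over 10005 genes was 0.347. Their own log2 ratios were 0.24 to 0.32 and none passed (edgeR adjusted p from 0.704 to 0.851). Single members were 0.149 (Bgn) to 0.81 (Thbs1) from their own mean profile, and Lox (0.377) and Thbs1 lay beyond that median. The 5 genes were picked by this distance, so their being nearer than the members says nothing about the members. The likeness describes these 8 libraries, in which the genotype is part of the profile.

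Other matrix genes were read from 10 lists of 149 genes, of which 130 were tested. Of these, 1 passed, the metalloproteinase gene Mmp12, and it rose from 30.9 ± 5.02 to 124 ± 27.1 CPM (SD, n = 4), a log2 ratio of 2.0 (edgeR adjusted p = 0.000147). At an unadjusted p under 0.05 there were 10 higher and 1 lower genes, 8.46% of those tested against 6.39% of all genes. The fitted difference was above 0 for 88 of them, or 67.7%.

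Among proteoglycans, none of 7 other leucine-rich members had an unadjusted p under 0.05, with a median log2 ratio of 0.06. The lowest p there were those of Epyc, at 3.45 ± 1.74 and 6.28 ± 4.14 CPM, and Prelp, at 458 ± 211 and 642 ± 222 CPM (SD, n = 4). Of 5 large proteoglycans, Vcan, which encodes versican, was at 16.4 ± 3.83 in control and 25.2 ± 3.94 CPM in knockout libraries (SD, n = 4), with no overlap and an edgeR adjusted p of 0.603. The heparan sulphate proteoglycan Hspg2 (perlecan) had a log2 ratio of 0.18 (edgeR adjusted p = 0.939). All 5 large proteoglycan genes tested had a difference above 0, with a median of 0.19.

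The genotypes separated completely in none of the microfibril partners of Fbn1. Of 15 tested genes for elastic fibres and microfibrils, 10 had a difference above 0, with a median of 0.1, and the one with the smallest p, Mfap2, went the other way, from 12.6 ± 3.94 to 7.34 ± 2.53 CPM (SD, n = 4; edgeR adjusted p = 0.732). Emilin2 was at 17.4 ± 2.28 and 23.2 ± 7.57 CPM (SD, n = 4).

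Of 17 other crosslinking and collagen maturation genes, 9 had a difference above 0, and the median was 0.04. Pcolce2, an enhancer of procollagen processing, was at 19 ± 3.48 and 34.8 ± 11 CPM (SD, n = 4; edgeR adjusted p = 0.328). Without the low-count filter Pcolce2 passed (edgeR adjusted p = 0.0392). Plod3, a lysyl hydroxylase, was at 61.5 ± 3.68 and 72.2 ± 7.71 CPM (SD, n = 4; edgeR adjusted p = 0.824).

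Thbs2, the paralogue of Thbs1, had a log2 ratio of 0.97 (19.2 ± 10 and 38.9 ± 17.9 CPM, SD, n = 4; edgeR adjusted p = 0.742), and Tnxb, for tenascin X, of 0.43 (edgeR adjusted p = 0.689). They were the 2 genes with an unadjusted p under 0.05 among 17 other matricellular and adhesive glycoproteins, against 6.39% of all tested genes. The median of these 17 genes was 0.06. The 10 tested laminin and nidogen genes had a median of 0.06 and the smallest p belonged to Lamb1 and Lamc3 (edgeR adjusted p = 0.91 and 0.918).

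Collagen genes lay mostly on the higher side, 16 of 17 with a median of 0.19, but none passed. Col1a1 was at 377 ± 64.6 and 475 ± 105 CPM and Col16a1 at 8.59 ± 2 and 15.4 ± 7.23 CPM (SD, n = 4; edgeR adjusted p = 0.813 and 0.689). Without knockout replicate 4 the collagen median was 0.11.

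Among the 17 tested matrix receptors, 4 had an unadjusted p under 0.05 and the higher mean in knockout libraries, Cd44, Sdc1, Itgb1 and Itgb5. Over all tested genes 3.52% were higher at that level. The fitted difference was above 0 for 11 of the 17, with a median of 0.12 (-0.05 without knockout replicate 4). Cd44, the hyaluronan receptor, which leukocytes also carry, was at 43, 37.2, 34.1 and 23.1 CPM in control and 50.8, 54.9, 48.1 and 53.5 CPM in knockout libraries (edgeR adjusted p = 0.432). Sdc1 was at 11.3 ± 2.55 and 18.4 ± 3.13 CPM (SD, n = 4, edgeR adjusted p = 0.603). In neither Cd44 nor Sdc1 did the libraries overlap, a separation with knockout higher that 2.48% of all tested genes showed. The TGF-beta ligands, receptors and SMADs, which lie upstream of many matrix genes, had a median of -0.05 with 5 of 12 above 0, and none had an unadjusted p under 0.05; Smad7 and Smad3 had the smallest (edgeR adjusted p = 0.922 and 0.943). Of 13 proteases and inhibitors, Timp3 came after Mmp12, at a log2 ratio of 0.21 (edgeR adjusted p = 0.877). Of these 13 genes, 11 had a difference above 0, with a median of 0.19 (0.12 without knockout replicate 4).

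**Figure D4:**
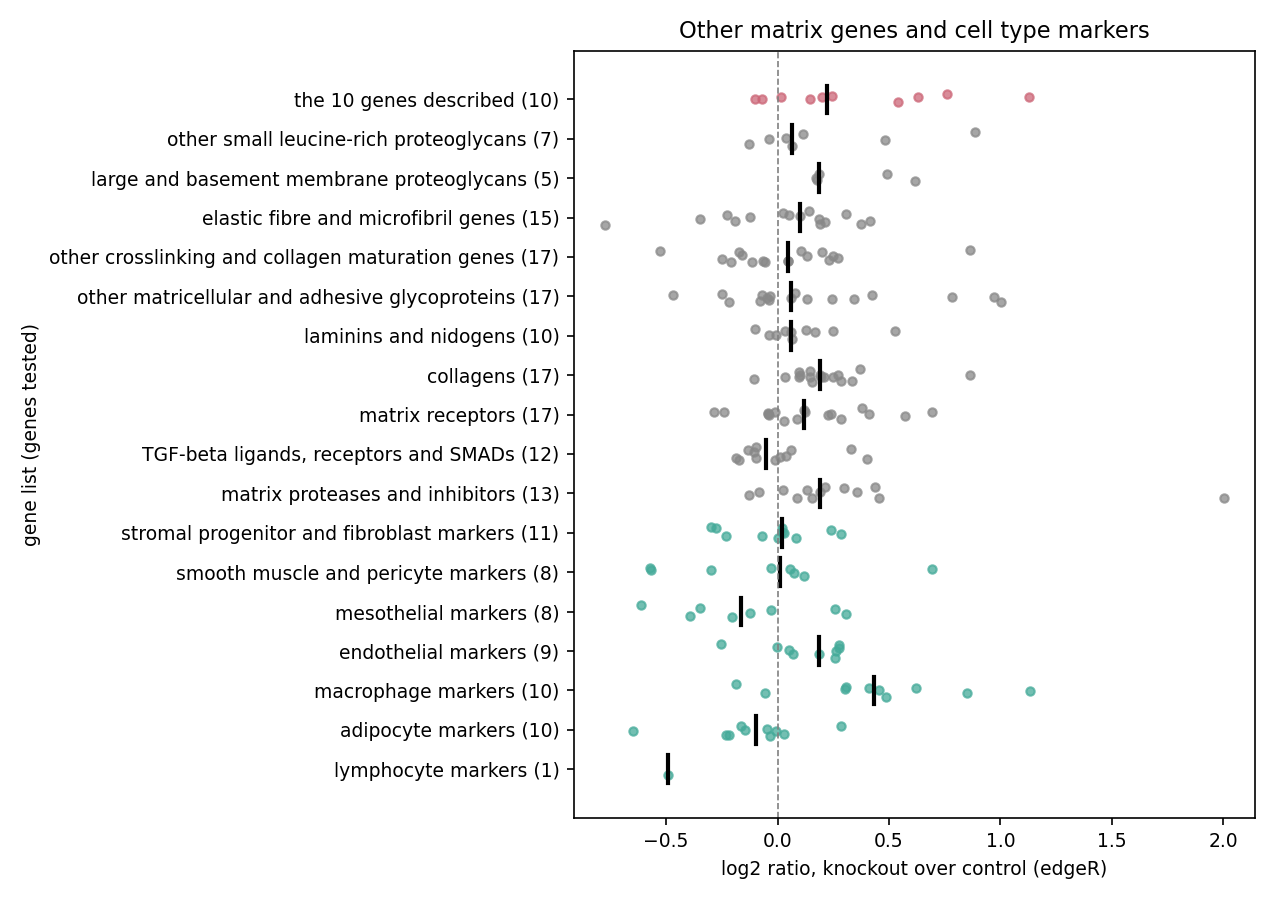
Log2 ratio, knockout over control (horizontal axis), of each tested gene in the 10 genes described (red), 10 other matrix lists (grey) and cell type marker lists (green); black bars are list medians and the number of genes tested stands in brackets. The macrophage markers have the highest median, 0.43, the 10 genes 0.22 (0.06 without knockout replicate 4), and the stromal progenitor and fibroblast markers 0.02.

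Markers of the cells that could supply these transcripts were set beside them. Stromal progenitor and fibroblast markers had a median log2 ratio of 0.02 with 7 of 11 genes above 0 and no unadjusted p under 0.05; Gsn was at 5423 ± 264 and 4476 ± 796 CPM and Pdgfra at 57.2 ± 11.5 and 46.2 ± 9.25 CPM (SD, n = 4; edgeR adjusted p = 0.803 and 0.877). Of 10 tested macrophage markers 2 passed, Lyz2, which rose from 379 ± 23.4 to 682 ± 86.7 CPM, and Cd68, from 36.3 ± 10.1 to 80.6 ± 10.8 CPM (SD, n = 4; edgeR adjusted p = 0.00776 and 0.0156). The call of Lyz2 was lost without control replicate 2 (edgeR adjusted p = 0.0551) and with the replicate block (0.0813). That of Cd68 was lost with the block (edgeR adjusted p = 0.0962) and without control replicate 2, control replicate 3, knockout replicate 1 or knockout replicate 2 (0.0786, 0.1, 0.0621 and 0.0984). At an edgeR unadjusted p under 0.05, 7 of the 10 tested macrophage markers were higher in knockout libraries, against 3.52% of all tested genes. For 6 of them every knockout library lay above every control library, against 2.48% of all tested genes. The fitted difference was above 0 for 8 of the 10, with a median of 0.43. The other 2, named after their values were seen, were Cd163 at -0.19 and Mertk at -0.06. The summed level of the listed markers did not overlap, at 689 to 801 CPM in control and 1098 to 1367 CPM in knockout libraries, and was highest in knockout replicate 4. None of the 11 listed macrophage markers was at 0 in all libraries, and the part of this difference in the values of Fn1, Thbs1, Fbn1 and Postn was not tested.

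No gene of the remaining marker lists passed. Endothelial markers had a median of 0.19 (7 of 9 above 0; Egfl7 and Flt1 with the smallest p, edgeR adjusted p = 0.863 and 0.903). Without control replicate 4 the endothelial median was -0.01, without knockout replicate 2 it was 0.03, and without knockout replicate 4 it was 0.29. Mesothelial markers had a median of -0.16 with 2 of 8 above 0. The smallest p there were those of Lrrn4 (log2 ratio 0.31) and Wt1 (-0.35), both with an edgeR adjusted p of 0.939. Smooth muscle and pericyte markers had a median of 0.01; Notch3 was at 19.2 ± 4.89 and 31.7 ± 5.11 CPM and Tagln at 49.9 ± 13.1 and 33.8 ± 4.81 CPM (SD, n = 4; edgeR adjusted p = 0.45 and 0.514). Fat-cell markers had a median of -0.1 with 2 of 10 above 0; Retn, for resistin, was at 2392 ± 320 and 1528 ± 144 CPM (SD, n = 4), without overlap and with an edgeR adjusted p of 0.0731, and Pparg had one of 0.802. Retn was lower past the threshold in 5 other settings, by adjusted p: DESeq2 (0.000147), no low-count filter (0.00157), limma-voom (0.0261), without control replicate 4 (0.0114) and with both replicates 4 left out (0.0249). Of 9 lymphocyte markers 1 was tested, Cd3d (log2 ratio -0.49, edgeR adjusted p = 0.924), and the summed level was 12.4 to 30.7 CPM over the 8 libraries.

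Across 15 other settings, 6 of the 10 members kept the sign of their difference in every fit, namely Fn1, Thbs1, Postn, Fbn1, Dcn and Loxl1. Fbn1 ranged from 0.56 to 0.96 and its adjusted p from 0.193 to 0.858 over these settings, so it passed in none of them.

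**Figure D5:**
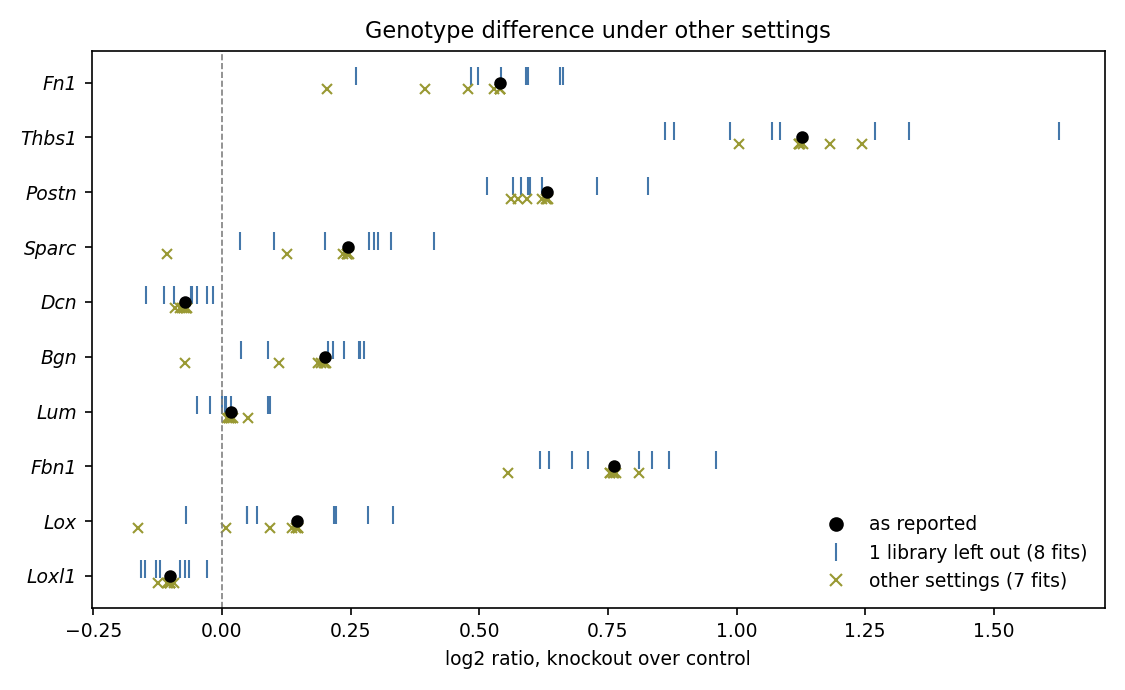
Log2 ratio of each gene, knockout over control (horizontal axis), as reported (black), in the 8 fits that leave out 1 library (blue bars) and in 7 other settings (crosses). Fbn1, Postn, Fn1 and Thbs1 stay above 0 throughout, Dcn and Loxl1 below 0, and Sparc, Bgn, Lum and Lox have values on both sides.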

How the data were processed

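The deposited table holds estimated counts per gene, not normalized by the authors as far as its values show (59.6% of values above 0 are whole). Libraries were 3′-end BRB-seq libraries with oligo-dT priming, per the labels' protocols; Salmon and GRCm38 are named in the submitters' processing notes, while versions, annotation and use of molecular identifiers are not given in the sources used here. Symbols were matched by Ensembl identifier without version to GENCODE M21 (34582 of 34866), whose coordinates are printed. Estimated counts were rounded and fitted with edgeR 4.0.16 (R 4.3.3): filterByExpr, TMM factors, robust quasi-likelihood F test, genotype as the only term. CPM uses TMM-scaled totals of tested genes. A gene with 0 counts could hold up to 3 counts, 0.982 to 1.95 CPM; floors and intervals cover counting error or fitted spread only.

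Replicates differed beyond sampling noise (chi-square per degree of freedom 4.49 to 9.42), so each library counts as 1. The fit was tried on simulated counts in which 100 genes differed 2-fold and 100 others 4-fold. It found 60% of the former and 84% of the latter. Genes left without a change made up 8.86% of its 158 calls. A simulation lacking any change still gave 5 calls among 12234 genes. Changes below 2-fold were not simulated, so a missing call does not show that a gene is unchanged. Alternatives used DESeq2 1.42.0, limma 3.58.1, RLE and upper-quartile factors, no filter, the replicate block and left-out libraries. The text names all 10 members and, in each other list, the genes past an adjusted p of 0.05, the 2 with the smallest p and those with an unadjusted p under 0.05 that a count turns on; the last were chosen after their values were seen. Members and lists were chosen with earlier results of these data known. Members share at most 44 words of 31 bases with any single other gene of the table. However, Dcn, Bgn, Fn1 and Sparc share at least 1 such word with 984, 976, 571 and 389 genes. Promoter windows for 4 of the 10 members were found in RefSeq; the other members are named only.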

Additional observations from a re-analysis of the deposited data

Results flagged for a closer look

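The level of Sparc in knockout replicate 4, 6702 CPM, stood apart from the other knockout libraries, at 3931 to 4256 CPM: the gap to the nearest library was 0.883 of the whole range, above Dixon's critical value for 4 libraries. Of 20 groups of 4 values examined, for 10 genes in both genotypes, 1 was singled out this way, where chance gives 1. Without that library the log2 ratio of Sparc was 0.035, against 0.25 with it.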

How the results depend on the processing

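No member passed the threshold in 14 of 15 other settings; the exception was Postn without knockout replicate 3, so the number of members past it was 0 to 1 when 1 library was left out, and the log2 ratio of Postn then ranged from 0.515 to 0.828. Signs of members turned with single libraries for Lum and Lox: Lum ranged from -0.0487 to 0.0926 and Lox from -0.069 to 0.333 when 1 library was left out. With both replicates 4 left out, added after seeing the data, values turned to -0.108 for Sparc, -0.0709 for Bgn, -0.164 for Lox, -0.0693 for Hspg2 and -0.0436 for Prelp, and 44 genes of the whole table passed. The 21 genes of the whole table became 58 without a low-count filter, 53 with DESeq2, 6 with the replicate block, and from 4 (lacking control replicate 2) to 43 (lacking control replicate 4) in fits lacking 1 library. Genes past the threshold in the other lists numbered 3; there were 5 without the filter, 1 with the block, and from 1 to 4 lacking the same libraries. Leaving out 1 library turned the sign of the median log2 ratio of every other list except the small leucine-rich and large proteoglycans, collagens, proteases and inhibitors, macrophage and fat-cell markers. RLE and upper-quartile factors and limma-voom kept every member on the same side of the threshold. The cause of these changes was not tested. Deviations of same-numbered libraries had correlations of 0.25, -0.062, -0.0058 and -0.241 (replicates 1, 2, 3 and 4), which does not make them pairs; the block changed no member's call. Among the members Thbs1 rests on the fewest counts in its lowest library, 13, and the part of depth in its spread was not tested.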
